A study of Gallus gallus with 18 samples.

Results

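The study's table of the alpha-globin region of chicken chromosome 14 lists Ep300, USP7, GTF3C1 and NAA60, and these 4 genes were followed through the RNA-seq data. They were chosen by name, as regulators of transcription, chromatin or proteins, and not by their levels, though with earlier results of these data known. They make up 4 of the 17108 Ensembl genes in the count tables: ENSGALG00000011992 (Ep300), ENSGALG00000026085 (USP7), ENSGALG00000007387 (GTF3C1) and ENSGALG00000023702 (NAA60). All of them had reads in all 6 libraries and passed the filter on low counts, USP7 only through its HD3 libraries.

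The study sequenced total RNA depleted of rRNA from 3 groups of cultured chicken cells, with 2 biological replicates each, to ask how transcription around the alpha-globin genes changes when these are fully activated. DT40 is a lymphoid line from a bursal lymphoma induced by avian leukosis virus in a Hyline SC chicken. HD3pr are proliferating cells of the erythroblast line HD3 (clone A6 of line LSCC, transformed by avian erythroblastosis virus), and HD3dif are HD3 cells induced to terminal differentiation. DT40 and HD3pr cells were grown at 37 °C in 5% CO2, in a medium with 2% chicken and 8% fetal bovine serum. HD3dif cells were kept in that medium with 10 mM HEPES and 20 µM iso-H-7, an inhibitor of protein kinases, at 42 °C in air, for 14 h according to the labels. The compound, the buffer, the temperature and the atmosphere changed together, so their effects cannot be told apart. Each cell type is represented by 1 transformed line. A difference between HD3pr and DT40 is therefore a difference between these lines.

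The libraries held 20100063 to 33433279 reads on genes, out of 53441424 to 72817624 reads. Reads on genes made up 53.8% and 55.4% of all reads in DT40, 44.4% and 46.2% in HD3pr and, in HD3dif, 35.8% and 33.0%. Of the erythroid markers, only the embryonic alpha-type globin gene HBZ could be matched to the files. HBZ was at 0 reads in both DT40 libraries, at 180 and 133 in HD3pr and at 1000 and 1163 in HD3dif. None of the 10 B-lymphoid markers could be matched, so the label of DT40 was not checked beyond the lack of HBZ reads. In bulk RNA, fewer cells with a transcript and less transcript per cell cannot be told apart.

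EP300 and its relative CREBBP are coactivators that transcription factors bring to enhancers and promoters, where they acetylate histones and other proteins. USP7 removes ubiquitin from its substrates. In human cells it is best known for stabilizing MDM2 and p53. GTF3C1 is the largest subunit of TFIIIC, the complex that recognizes the promoters of tRNA genes and recruits RNA polymerase III. NAA60 is an acetyltransferase of protein N-termini. The human enzyme sits at the Golgi membrane and acts on transmembrane proteins.

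The files give only identifiers, and the names come from matching counts with the study's table of the region. All 4 names matched exactly 1 identifier with at least 20 reads, as did 23 others of the 35 names in that table. The name Ep300 calls for caution. In the RefSeq annotation of the GRCg7b assembly, EP300 lies on chromosome 1, between L3MBTL2 and RBX1. The gene that follows TRAP1 on chromosome 14, at the end of the studied region, is CREBBP. Which of these relatives the row counts could not be settled here, so Ep300 is used below only as the name of this row. USP7, GTF3C1 and NAA60 lie on chromosome 14 in the same annotation.

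The 4 genes fell into 3 patterns. Ep300 and USP7 rose from DT40 to HD3pr and again from HD3pr to HD3dif. GTF3C1 was highest in HD3pr, with similar levels in DT40 and HD3dif. NAA60 was highest in DT40. A gene was called higher or lower where the log2 fold change was beyond 0.6 and the Benjamini-Hochberg (BH) adjusted p of edgeR's quasi-likelihood test was below 1e-07. Levels are in CPM, the read counts scaled to a common total of gene reads, with library totals adjusted by TMM factors. In HD3pr against DT40, 3 of the 4 genes were called higher and 1 lower, beside 22.4% and 18.2% of the 10898 genes tested (40.6% in either direction). In HD3dif against HD3pr, 2 were higher and 1 lower, beside 12.0% and 18.4% of all genes tested (30.4% in either direction). In HD3dif against DT40, 2 were higher and none lower, beside 27.1% higher and 27.1% lower among all genes tested (54.2% in either direction). The genes called higher against DT40 include USP7, which passed the filter only through its HD3 libraries. With so few genes, chosen by name, these counts say nothing about regulators as a class. The 3 comparisons share libraries and are not independent.

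**Figure D1:**
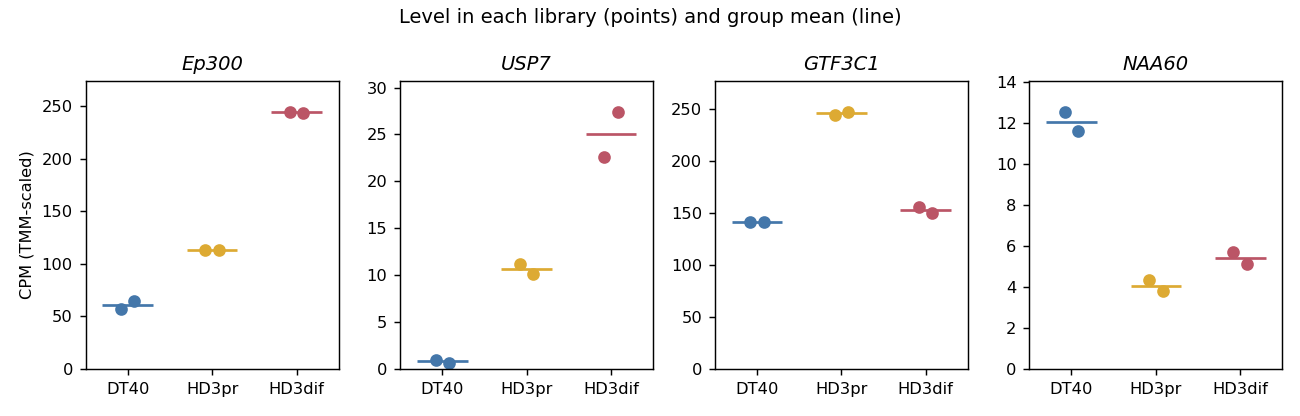
Level of each gene (CPM with TMM-adjusted totals, linear axes from 0, a separate scale per gene) in the 2 libraries of DT40, HD3pr and HD3dif; points are libraries and lines are group means. Ep300 and USP7 climb from DT40 through HD3pr to HD3dif, GTF3C1 peaks at 245 and 247 CPM in HD3pr, and NAA60 is highest in DT40 at 12.6 and 11.6 CPM.

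Ep300 had 1621 and 2182 reads in DT40, 3155 and 3087 in HD3pr and, in HD3dif, 5362 and 6343. This gave 56.6 and 64.5 CPM in DT40, 112.8 and 113 in HD3pr and, in HD3dif, 244 and 243. No 2 groups overlapped, but with 2 libraries a group this says little, here and for the genes below. Every region gene with a matched identifier lay apart in both comparisons of HD3dif, called or not. C16orf72, for example, did so between HD3pr and HD3dif at a log2 fold change of 0.07 that was not called. Between HD3pr and DT40, only MGRN1, NPRL3, NUDT16L1 and RBFOX1 of these genes overlapped. The share over all tested genes was not counted. Both steps of Ep300 were far larger than the gaps between replicates. The rise in HD3pr over DT40 was 1.86-fold (95% confidence interval 1.71 to 2.03), a log2 fold change of 0.90 (SE 0.058, edgeR quasi-likelihood, BH adjusted p = 5.0e-11). Induction brought a further 2.16-fold rise (1.99 to 2.34), a log2 fold change of 1.11 (SE 0.055, edgeR quasi-likelihood, BH adjusted p = 1.8e-12). HD3dif stood 4.03-fold (3.70 to 4.38) above DT40, a log2 fold change of 2.01 (SE 0.058, adjusted p = 1.5e-16 by the same test). The levels thus ran in the order DT40, HD3pr, HD3dif, and each pair of neighbours was called different. The step from DT40 to HD3pr stayed called with the 3 other scalings by gene reads (0.76 to 0.83 on the log2 scale). Per total of all reads, unassigned reads included, it was 0.49 and under the fold limit, but there the median of all genes also moved, from 0.08 to −0.32. Relative to that median the step was 0.81 under all 5 scalings. This follows from the arithmetic, since a scaling shifts all genes nearly alike, and is no check of the call. Without a filter on low counts its adjusted p was 1.2e-07.

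USP7 had the fewest reads of the 4 genes in DT40, 28 and 23. It had 313 and 275 reads in HD3pr and 496 and 714 in HD3dif. USP7 is known as a broadly expressed gene, and whether this row covers the whole gene was not checked, since no annotation of the authors' build was used. The fold changes below are therefore those of the row. The counting error of the DT40 values is wide (95% Poisson intervals 18.6 to 40.5 and 14.6 to 34.5 reads). The levels were 0.977 and 0.680 CPM in DT40, 11.2 and 10.1 in HD3pr and, in HD3dif, 22.6 and 27.4. Both DT40 values are under the filter of 1 CPM, which the row passed through the HD3 libraries where it is high. The size of its differences to DT40 rests on these low counts. With DT40 under the filter, the row could be tested only as a gene higher in HD3. Its calls, p-values and ranks against DT40 are therefore descriptive. Each group lay apart from the others, and the HD3dif replicates differed most in CPM. The rise in HD3pr over DT40 was 13.0-fold (9.34 to 18.0), a log2 fold change of 3.70 (SE 0.22, edgeR quasi-likelihood, BH adjusted p = 2.1e-11). This was the largest difference between HD3pr and DT40 among the 4 genes. It ranked 1058 among the rises of all 10898 genes. HD3dif was 30.6-fold (23.0 to 40.6) above DT40, a log2 fold change of 4.94 (SE 0.19, adjusted p = 1.8e-14).

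Induction raised USP7 2.36-fold (1.97 to 2.82), a log2 fold change of 1.24 (SE 0.12, edgeR quasi-likelihood, BH adjusted p = 3.6e-08). This call lies close to the limit on p. With only the HD3pr and HD3dif libraries fitted it held, at a log2 fold change of 1.26 (edgeR quasi-likelihood, BH adjusted p = 6.9e-11). It was lost without any 1 of the HD3pr and HD3dif libraries. Each of these last fits leaves 1 library in a group, and fewer genes were called over all tested genes too. The adjusted p was 2.8e-06 without HD3pr replicate 1, 1.1e-05 without HD3pr replicate 2, 3.3e-07 without HD3dif replicate 1 and 9.1e-06 without HD3dif replicate 2. The direction and size held, at 1.16 to 1.43 on the log2 scale with 1 library left out. At a looser limit of 0.05 the rise was called in all of these fits.

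GTF3C1 had 4053 and 4791 reads in DT40, 6850 and 6744 in HD3pr and, in HD3dif, 3421 and 3912. It was the most deeply read of the 4 genes in DT40 and HD3pr, and its replicates lay close together. The levels were 141.4 and 141.6 CPM in DT40, 245 and 247 in HD3pr and, in HD3dif, 156 and 150.2. HD3pr thus stood above both other groups. The rise in HD3pr over DT40 was 1.74-fold (1.63 to 1.86), a log2 fold change of 0.80 (SE 0.045, edgeR quasi-likelihood, BH adjusted p = 7.9e-12). As for Ep300, this call was lost per total of all reads (0.39). The rise relative to the median of all genes was 0.71 under all 5 scalings, again by construction. From HD3pr to HD3dif the level fell by 0.69 on the log2 scale (1.61-fold, 1.50 to 1.72; SE 0.046, edgeR quasi-likelihood, BH adjusted p = 1.2e-10).

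The fall of GTF3C1 is close to the fold limit and depends on the scaling. Without TMM factors it was −0.44 and with upper-quartile factors −0.46, both short of 0.6. These scalings also moved the median of all genes, from 0.03 with TMM factors to 0.28 and 0.26. Taken relative to the median of all genes, the fall was −0.72 under all 5 scalings tried. That constancy is fixed by the arithmetic and does not show whether the call holds. Without HD3dif replicate 2 it was −0.59, and without HD3pr replicate 2 the adjusted p was 1.4e-07. Between HD3dif and DT40 the difference was small, 1.08-fold (1.01 to 1.16), a log2 fold change of 0.11 (SE 0.046, edgeR quasi-likelihood, BH adjusted p = 0.028), and not called. Its sign depended on the scaling, since it was −0.44 per total of all reads, where the median of all genes was −0.52. In rising order the levels were DT40, HD3dif and HD3pr, and the first pair was not called different.

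NAA60 had 360 and 393 reads in DT40, 121 and 104 in HD3pr and, in HD3dif, 125 and 134. The levels were 12.6 and 11.6 CPM in DT40, 4.32 and 3.81 in HD3pr and, in HD3dif, 5.70 and 5.14. Both DT40 libraries lay far above the 4 HD3 libraries. HD3pr was 2.96-fold (2.39 to 3.67) below DT40, a log2 fold change of −1.57 (SE 0.15, edgeR quasi-likelihood, BH adjusted p = 1.4e-08). This call was lost without either HD3pr or either HD3dif library, where the adjusted p was 2.1e-07 to 3.5e-06. The fits without these libraries also called fewer genes over all tested genes. In HD3dif the level was 2.23-fold (1.81 to 2.76) below DT40, a log2 fold change of −1.16 (SE 0.14, adjusted p = 4.9e-07), which missed the limit on p.

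After induction NAA60 was 1.33-fold (1.02 to 1.72) the HD3pr level, a log2 fold change of 0.41 (SE 0.18, edgeR quasi-likelihood, BH adjusted p = 0.047), and not called. The CPM of the HD3pr and HD3dif libraries did not overlap, but the interval runs from nearly no difference to one beyond the fold limit. The levels ran in the order HD3pr, HD3dif, DT40. Of these, only HD3pr and DT40 passed both limits.

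**Figure D2:**
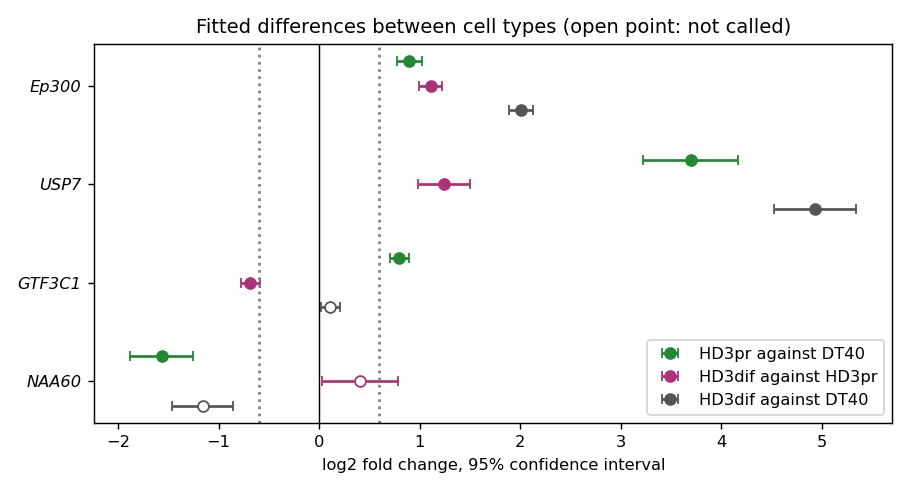
Log2 fold change of the 4 genes in the 3 comparisons, with 95% confidence intervals from the edgeR fit; filled points were called, open points were not, and dotted lines mark the fold limit of 0.6. USP7 has the largest differences to DT40 (3.70 and 4.94), where both its DT40 values are under the filter of 1 CPM. The 2 differences of NAA60 involving HD3dif and that of GTF3C1 between HD3dif and DT40 are open.

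Among all tested genes, the changes of the 4 genes on induction were moderate. Ep300 ranked 2183 and USP7 1984 among the rises in HD3dif over HD3pr, and GTF3C1 ranked 2419 among the falls. Against DT40, Ep300 ranked 2260 and USP7 1020 among the rises in HD3dif. USP7 entered that ranking only through its HD3 libraries. NAA60 ranked 1305 among the genes lower in HD3pr than in DT40. The interquartile range of all genes ran from −0.60 to 0.83 in HD3dif against HD3pr. The fall of GTF3C1 and the rises of Ep300 and USP7 lay outside that range, and the value of NAA60 inside it.

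**Figure D3:**
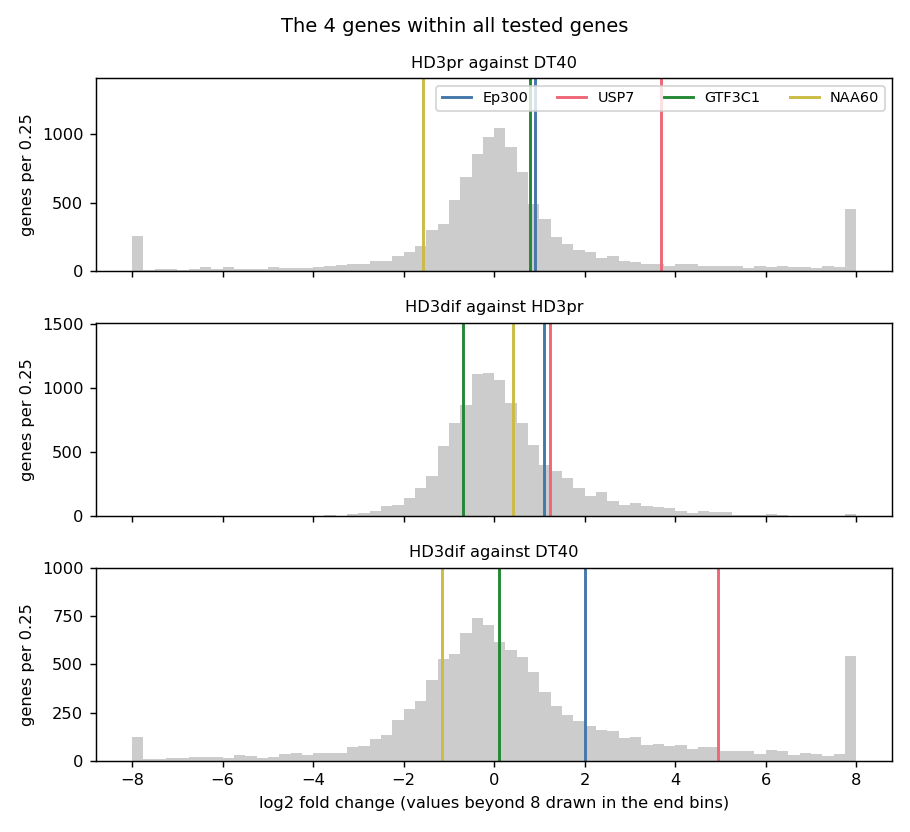
Number of genes per 0.25 of log2 fold change, for all 10898 tested genes in the 3 comparisons, with coloured lines at the values of the 4 genes. In HD3dif against HD3pr the lines lie between −0.69 (GTF3C1) and 1.24 (USP7). Against DT40, USP7 lies furthest right of the 4 genes (ranks 1058 and 1020 among all rises), with both its DT40 values under the filter of 1 CPM.

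The ratio of reads of 2 genes within a library needs no scaling between libraries. Ep300 had 0.400 and 0.455 reads per GTF3C1 read in DT40, 0.461 and 0.458 in HD3pr and, in HD3dif, 1.57 and 1.62. The balance between these genes was thus close in DT40 and HD3pr, and it moved towards Ep300 in both HD3dif libraries. USP7 had 0.0173 and 0.0105 reads per Ep300 read in DT40, 0.0992 and 0.0891 in HD3pr and, in HD3dif, 0.0925 and 0.113. The HD3pr and HD3dif values overlap, so on induction no difference between the rises of USP7 and Ep300 was seen beyond the replicates. NAA60 had 0.0888 and 0.0820 reads per GTF3C1 read in DT40, 0.0177 and 0.0154 in HD3pr and, in HD3dif, 0.0365 and 0.0343. Here the 3 groups do not overlap. GTF3C1 itself fell on induction, so the higher ratio in HD3dif does not show a rise of NAA60. Per read of Ep300, which rose, NAA60 went from 0.0384 and 0.0337 in HD3pr to 0.0233 and 0.0211 in HD3dif. These ratios also reflect transcript length, so only their changes can be read, and with 2 libraries a group they were not tested.

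The spread between replicates can be set against that of all genes. For Ep300, the replicates differed by 0.19 on the log2 scale in DT40 and by less than 0.01 in HD3pr and HD3dif. GTF3C1 replicates differed by at most 0.05, less than the median gene in each group. USP7 had the widest spread of the 4 genes in DT40 and HD3dif, with 0.48 lower in DT40 replicate 2 and 0.28 higher in HD3dif replicate 2, against medians of 0.096 and 0.099 over all genes. NAA60 replicates differed by 0.11 to 0.18, and in HD3pr they were the widest apart, before USP7 at 0.15. The SE of the fold changes was accordingly smallest for GTF3C1 and Ep300, which had the most reads.

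The other region genes with a matched identifier were ranked by how closely their log2 CPM, centred on the 6-library mean, matched that of each gene. HMOX2, which encodes a heme oxygenase, was nearest to Ep300 with a root mean square difference of 0.20 (log2), followed by AXIN at 0.21 and RHBDF1 at 0.27. Unlike Ep300, they were called at neither step, though all were called higher in HD3dif than in DT40. CLCN1 was nearest to GTF3C1 at 0.21, and C7orf26 followed at 0.26. CLCN1 was called higher in HD3pr than in DT40, but its value on induction was −0.32 and not called. C7orf26 was called in no comparison. The nearest to USP7 were ARHGDIG at 0.83, TMEM8A at 0.90 and Ep300 at 1.31. ARHGDIG was high in HD3pr like USP7, but its value on induction was −0.74 and not called, whereas TMEM8A was called higher at both steps. The nearest to NAA60 was LUC7L at 0.69, with a Pearson r of only 0.14 over the 6 libraries. By this measure, which also weighs the size of changes, no region gene lay close to NAA60. CARHSp1 shared its order of groups, with far larger steps. It was called lower in HD3pr than in DT40 (log2 fold change −7.31) and higher after induction (2.06). HD3dif stayed below DT40 (−5.25). The size of the first 2 steps rests on a low HD3pr mean of 0.92 CPM. The ranking rests on 26 genes and on 6 libraries of 3 cell types.

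**Figure D4:**
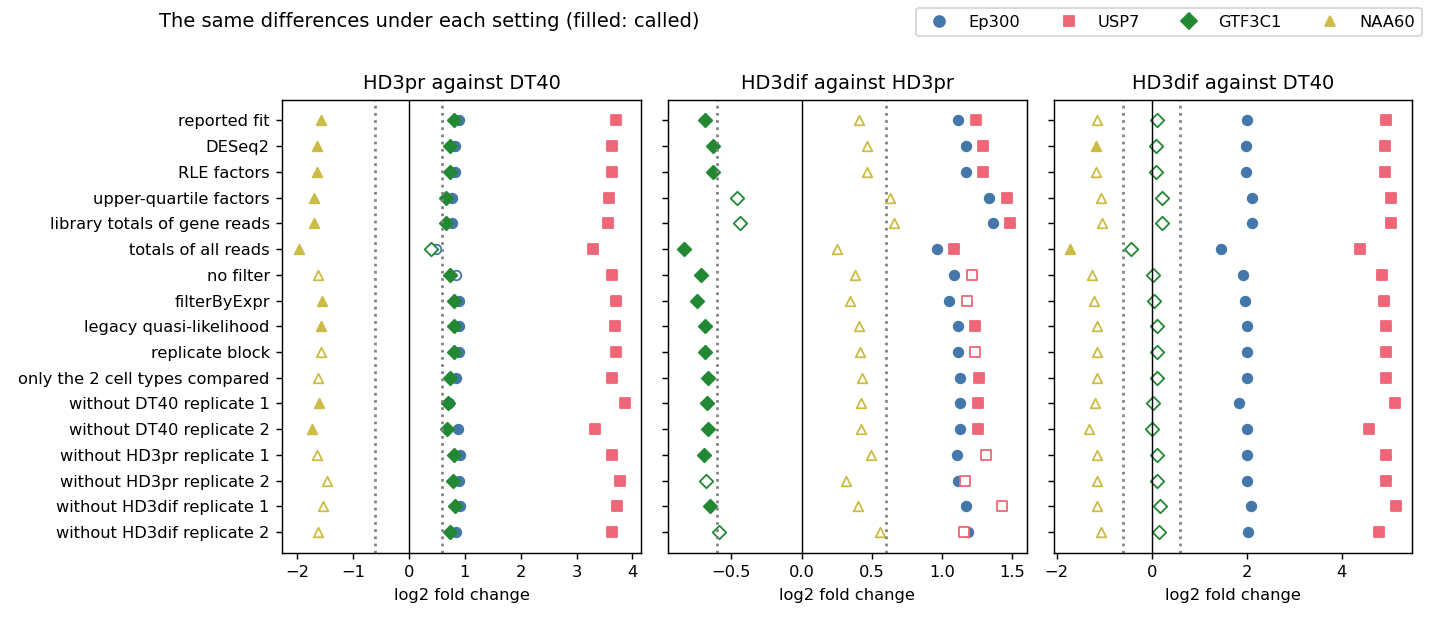
Log2 fold change of the 4 genes in the 3 comparisons (columns) under the reported fit and each alternative of method, scaling, filter, design or library (rows); filled symbols were called at the limits of 0.6 and 1e-07, open ones were not. Ep300 and USP7 keep their side of 0 in all rows, and GTF3C1 crosses 0 only against DT40 with totals of all reads (−0.44).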

How the data were processed

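RNA-seq counts of 6 libraries were used, 2 each of DT40, HD3pr and HD3dif. Per the labels and the study's methods, the authors aligned reads with TopHat (TopHat2 2.0.12 and Bowtie2 2.2.1 in the submitters' processing notes) to galGal4 with Ensembl genes, and deposited raw read counts per gene from HTSeq, without normalization. The library kit kept the strand, but whether the counting used it is not given in the sources used here. Reads where genes overlap on opposite strands may therefore be set apart as ambiguous or counted for the wrong gene. Reads that the counts set apart as without a gene (26.9% to 46.6% of all reads), ambiguous (0.192% to 0.398%) or not uniquely aligned (15.5% to 21.9%) stayed out of library sizes and tests.

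Genes were kept where 2 or more of the 6 libraries exceeded 1 CPM. Counts of the 10898 genes left were tested with edgeR 4.0.16 in R 4.3.3 (estimateDisp, glmQLFit and glmQLFTest, TMM factors 0.915 to 1.09, 1 model over the 6 libraries, 3 residual degrees of freedom). P-values were adjusted by BH over all these genes, and the limits follow the study. The fit moderates the spread of each gene towards that of all genes. Its p-values and intervals therefore use more than the 3 residual degrees of freedom, and do not rest on a gene's own replicates alone. The SE is the size of the log2 fold change divided by the square root of F. The 95% Poisson intervals of counts cover counting error only. The fit was tested on simulated counts. Alternatives were DESeq2 1.42.0, 4 other scalings, 2 other filters, the legacy quasi-likelihood, a replicate block, only the 2 cell types compared, a looser threshold and each library left out.

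Names were matched by turning the values of the study's region table into replicate 1 counts. The paper describes these values as means over replicates, but here they were taken as replicate 1 values per total of all reads. A small factor per library was chosen to bring them nearest to whole numbers. The counts had to fit 1 identifier in 3 libraries within 0.5 read plus 5e-05 of the count, with at least 20 reads. None of the 17108 identifiers is paired with a symbol in the RefSeq table (GRCg7b), so lists of acetyltransferases, deacetylases, USP enzymes, RNA polymerase III genes and erythroid factors could not be counted, and names without a match were not analysed here. The genes named are the 4 genes in every comparison and region genes nearest to each, with flanking genes, CARHSp1 and HBZ added. The genes, lists and alternatives were chosen with earlier results of these data known. Coverage tracks and contact maps were not used here.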

Additional observations from a re-analysis of the deposited data

How the results depend on the processing

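The 12 differences (4 genes in 3 comparisons) were recomputed under 17 alternatives, which gave 204 values. These values include the looser threshold, which reuses the reported fit and so cannot change a direction or lose a call. The direction and the side of the limits were kept in 177. The call was lost in 21 and gained in 5, and 1 changed direction. With totals of all reads, HD3pr against DT40 was 0.49 for Ep300 and 0.39 for GTF3C1, both no longer called. In HD3dif against DT40 with these totals, GTF3C1 turned to −0.44 and NAA60 was called lower at −1.72. With DESeq2, NAA60 was called lower in HD3dif than in DT40, at −1.17. Without a filter, calls were lost for Ep300 (0.84) and NAA60 (−1.62) in HD3pr against DT40 and for USP7 (1.21) in HD3dif against HD3pr. The last was also lost with filterByExpr (1.18). With upper-quartile factors and with plain totals of gene reads, the fall of GTF3C1 in HD3dif was −0.46 and −0.44. With only the 2 cell types compared, NAA60 in HD3pr against DT40 was −1.63 and not called. At an adjusted p of 0.05 with no fold limit, NAA60 was called in HD3dif against HD3pr (0.41) and DT40 (−1.16), as was GTF3C1 against DT40 (0.11). With 1 library left out, NAA60 in HD3pr against DT40 lay between −1.74 and −1.47. In HD3dif against HD3pr, USP7 lay between 1.16 and 1.43 and GTF3C1 between −0.70 and −0.59. The cause was not tested beyond the scaling itself.

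Deviations of same-numbered libraries correlated at 0.05, −0.06 and −0.03 between groups, so no shift shared by replicate number was seen. Whether same-numbered libraries were handled together is not given in the labels. A replicate block lost the calls of NAA60 in HD3pr against DT40 (−1.57) and of USP7 in HD3dif against HD3pr (1.23), and no other call of the 4 genes.

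Over all genes, 4423, 3308 and 5907 were called in HD3pr against DT40, HD3dif against HD3pr and HD3dif against DT40, of which 55.2%, 39.4% and 50.1% were higher. At an adjusted p of 0.05 with no fold limit the counts were 9039, 8644 and 9766. In HD3dif against HD3pr, 2057 genes were called without a filter and 1793 to 3858 with 1 library left out. The share higher there was 58.8% with totals of gene reads. With totals of all reads, the share higher was 35.2% in HD3pr and 34.5% in HD3dif against DT40. Relative to the median of all genes, the values of the 4 genes moved by less than 0.01 between the 5 scalings. This had to be so, since a scaling shifts all genes nearly alike. Coverage of the genes and the gene lists were not run, as no annotation that matches the files was used.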

Other observations

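Genes that flank the 4 genes in the RefSeq order of GRCg7b were looked at after their values were seen, where the region table gave a match. NAA60 lies between C7orf26 and NUDT16L1. The mean CPM of C7orf26 (± SD, n = 2 per group) was 24.2 ± 0.18 for DT40, 27.6 ± 2.76 for HD3pr and 22.1 ± 0.21 for HD3dif, and it was called in no comparison. NUDT16L1 had 446 ± 43.3, 437 ± 18.9 and 165 ± 0.50 CPM. It fell by 1.41 on the log2 scale on induction (SE 0.057, edgeR quasi-likelihood, BH adjusted p = 9.5e-14). NAA60, at 12.1 ± 0.67, 4.07 ± 0.36 and 5.42 ± 0.39 CPM, thus had its largest gap between DT40 and HD3pr, where neither flanking gene was called. In that comparison 40.6% of all tested genes were called in either direction, so with so few genes this says little.

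TRAP1, the mitochondrial chaperone gene beside CREBBP at the end of the region, had 249 ± 7.30 CPM in DT40, 263 ± 0.17 in HD3pr and 120.3 ± 2.86 in HD3dif. It fell by 1.13 on induction (SE 0.047, edgeR quasi-likelihood, BH adjusted p = 1.2e-13), while the row named Ep300 rose by 1.11. Whether TRAP1 flanks the gene counted in that row was not settled.

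KATNIP, listed as KIAA0556 in the region table, lies next to GTF3C1. Its mean CPM (± SD, n = 2 per group) was 24.0 ± 1.08 for DT40, 33.6 ± 0.077 for HD3pr and 55.2 ± 0.86 for HD3dif. KIAA0556 was called higher on induction, with a log2 fold change of 0.72 (SE 0.069, edgeR quasi-likelihood, BH adjusted p = 2.4e-08), where GTF3C1 fell by 0.69.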
